A study of Mus musculus with 18 samples.

Results

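MiR-21 (mmu-miR-21 on the array, later named mmu-miR-21a-5p) is a microRNA, a short RNA that guides the Argonaute protein to matching sites in messenger RNAs and lowers their translation and stability. It is known for its rise in injured, regenerating and cancerous liver, where the tumour suppressor Pdcd4 is among its targets. It is made by hepatocytes and also by stellate cells, bile duct cells and leukocytes, so liver tissue carries miR-21 from several cell types. The measurements were taken as the array probes that carry the name mmu-miR-21 and are not controls, which is 1 of the 576 miRNA names on the array and 1 of the 69 that were tested. It was chosen for this known role, with no threshold on its values.

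Liver was analysed from male Muta™Mouse (transgenic mouse strain 40.6), which carries a bacterial lacZ reporter gene for scoring mutations, at an age of 25 weeks. All animals carried that transgene and received olive oil by daily oral gavage for 28 days, and their livers were taken 3 days after the last dose. The vehicle group (3 arrays) had olive oil alone, and the other groups (5 arrays each) had benzo(a)pyrene (BaP) at 25, 50 or 75 mg/kg/day; BaP is a polycyclic aromatic hydrocarbon that the liver converts to DNA-binding metabolites. The study hybridised samples of 5 mice per group, vehicle included, and left out some arrays after its quality check. Only 3 vehicle arrays were available here. Each sample was labelled with cyanine 3 on its own and hybridised to 1 of the 18 arrays. The question put to these data is whether hepatic miR-21 changed with BaP.

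The sequences are shown because the name of the array has since been divided among related loci. They come from RefSeq on GRCm38.p6, written 5′ to 3′ with the seed (bases 2 to 8, which select the targets) in capitals:
mmu-miR-21a-5p: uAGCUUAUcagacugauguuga
mmu-miR-21a-3p: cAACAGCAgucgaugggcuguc
mmu-miR-21b: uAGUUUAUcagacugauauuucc
mmu-miR-21c: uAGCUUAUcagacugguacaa

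The Mir21a hairpin lies on the minus strand at chr11:86584067-86584158, and its 5′ arm, which is miR-21, at chr11:86584120-86584141. The hairpin overlaps the annotated span of the protein-coding gene Vmp1 (chr11:86583858-86683836), near one of its ends. The star strand, mmu-miR-21* on the array, is the 3′ arm at chr11:86584082-86584103 and has another seed. MiR-21b (chr3:29636768-29636790) differs from miR-21 inside the seed by C4U and outside it by G18A, G21U and A22C, counting from 1 at the 5′ end, and is 23 bases long. MiR-21c (chr8:128278188-128278208) has the seed of miR-21 and differs at A16G, G18A, U19C, U20A and G21A over its 21 bases. Of 1738 mature mouse miRNAs in the table, 2 had this seed, miR-21 and miR-21c. The probe sequences were not given in the files used here, so how far the miR-21 probes separate these relatives was not tested.

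MiR-21 was detected on every array. It had 2 probes with 10 spots each, and all 180 of 180 spots of each probe were well above background over the 18 arrays. The median signal of the brighter probe lay between 1046 and 5094, and that of the dimmer probe between 86.5 and 618. The local background under these spots lay between 30 and 42, so the dimmer probe was the one closer to its background. On slides 2 and 3 the median signal over all non-control spots of an array was higher than that, at 58 to 69. The dimmer probe read 86.5 to 163 on those slides. No spot on any array was saturated. The star strand had 4 probes and was present on 0 of 18 arrays, with 1 of the 90 spots of its best probe above background. MiR-590-5p, a miRNA with the same seed in general knowledge, had 3 probes and was also present on 0 of 18 arrays. These have only a bound, below the level that the array measures, and were not tested.

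The labelled tissue was checked by miR-122, which defines hepatocytes and had 180 of 180 spots above background for each of its 2 probes. All 4 hepatocyte markers were tested. Of the miRNAs that mark other cells, 2 of 3 for red cells, 1 of 6 for white cells, 1 of 2 for endothelium, 1 of 5 for stellate or other mesenchymal cells and 0 of 3 for bile duct passed the filter. In whole liver, fewer cells of a type and less miRNA per cell cannot be told apart. The arrays lay on 3 slides, each with its own scan time: slide 1 held 1 vehicle array and 2 of each dose, slide 2 held no vehicle array but 2 from each of the higher doses, and slide 3 held 2 vehicle arrays, 3 at 25, 1 at 50 and 1 at 75 mg/kg/day.

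In the values below, each level is a normalised log2 signal, averaged over both probes, and 1 unit is a doubling. Replicate numbers only name arrays. The vehicle arrays read 10.31 on slide 1, and 8.89 and 9.03 on slide 3. At 25 mg/kg/day, the slide 1 arrays read 10.23 and 10.45, and the slide 3 arrays 8.72, 9.28 and 9.04. At 50 mg/kg/day, miR-21 read 10.27 and 10.36 on slide 1, 8.92 and 8.58 on slide 2, and 8.68 on slide 3. At 75 mg/kg/day, the slide 1 arrays read 10.34 and 10.57, the slide 2 arrays 8.92 and 8.87, and the slide 3 array 8.83. Each dose group was split the same way, with every slide 1 array above every array of the other slides, and the 4 groups overlapped throughout.

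**Figure D1:**
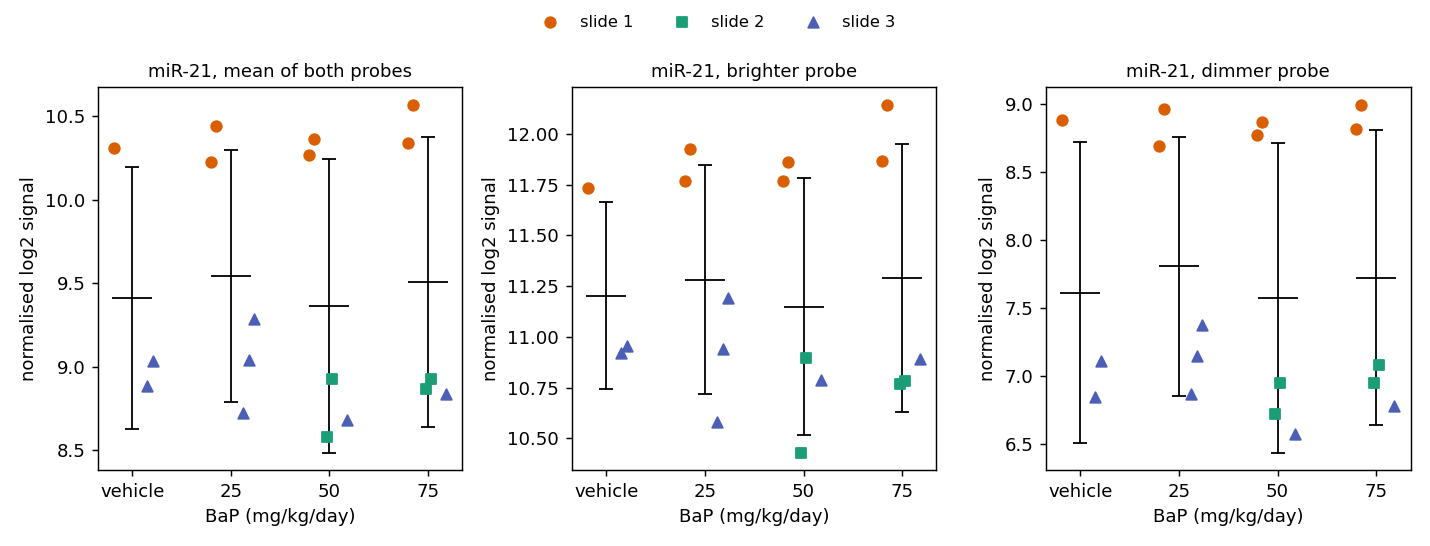
Normalised log2 signal of miR-21 on each array by BaP dose (mg/kg/day), as the mean of both probes and for each probe, with slides by colour and shape; black bars are the group mean ± SD over all arrays of a group (n = 3 for vehicle and 5 for each dose). The 7 slide 1 arrays lie between 10.23 and 10.57 for the mean of both probes, above all 11 other arrays, which lie between 8.58 and 9.28.

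Without regard to slide, vehicle had a mean of 9.41 ± 0.78 (SD, n = 3). Over 5 arrays each, the mean was 9.54 with an SD of 0.75 for 25, 9.36 with an SD of 0.88 for 50, and 9.51 with an SD of 0.87 for 75 mg/kg/day. The groups differed by far less than these SDs, which hold the slide difference. With slide in the fit, the SD left between arrays was 0.17, and the adjusted means ran from 9.27 at 50 to 9.39 in vehicle, 9.41 at 75 and 9.43 at 25 mg/kg/day. No neighbours in that order differed beyond their spread by the tests that follow. The share of the variance of miR-21 that lay between slides was 95.6%, which was rank 2 of the 69 miRNAs, whose median was 54.9%. Dose took a further 0.754% of the variance, and 3.62% was left over, so that the dose terms took up 17.2% of the variance within slides. Fitting the dose groups takes up part of that variance even where dose has no effect. This share was not tested and does not by itself show a dose effect.

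MiR-21 did not pass the threshold (adjusted P of 0.05) in any comparison with vehicle. For the lowest dose its log2 difference from vehicle was 0.038 (SE 0.11, adjusted P = 0.851, limma), a ratio of 1.03 with a 95% interval from 0.867 to 1.22. In that comparison 0 of the 69 miRNAs passed (0%), and 7 had an unadjusted P under 0.05. At 50 mg/kg/day the difference from vehicle was -0.12 (SE 0.12, adjusted P = 0.593, limma), a ratio of 0.918 with an interval from 0.764 to 1.10, while 2.9% of the tested miRNAs passed. At 75 mg/kg/day it was 0.022 (SE 0.12, adjusted P = 0.967, limma), a ratio of 1.02 with an interval from 0.845 to 1.22, while 5.8% passed. The intervals therefore leave room for a rise of up to 1.22-fold at the highest dose, or a fall to 0.845 of the vehicle level, but not for a doubling on this scale. These bounds hold for the normalisation used here. Without normalisation between arrays, the log2 difference at the highest dose was -0.43, below the lower end of this interval (-0.24).

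MiR-34a, which p53 induces after DNA damage, was fitted on the same arrays with the same model. At the highest dose it exceeded vehicle by 2.07 on the log2 scale, with an SE of 0.18 (adjusted P = 5.40e-07, limma). The middle dose gave 1.17, with the same SE (adjusted P = 0.000714). At 25 mg/kg/day its difference was 0.43 (adjusted P = 0.378). With background-subtracted signals the difference at the highest dose was larger, at 4.97 for the processed signal and 5.05 for the total gene signal. On both of these scales, scaled signals under 1 were set to 1 before the log. How far this floor set the vehicle level, and so the size of these differences, was not tested. The authors' value table gave 1.84 at this dose. MiR-34a was dim: in vehicle, 1 of its 2 probes was present on 2 of 3 arrays and the other on 0 of 3, so its vehicle level is only in part measured. The SE of miR-21 was rank 6 from the top of the 69 (0.12, against a median of 0.063 at 75 mg/kg/day), so miR-21 was measured less precisely than most.

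Between doses, miR-21 also stayed short of the threshold. At 50 against 25 mg/kg/day the log2 difference was -0.16 (95% interval -0.39 to 0.071, adjusted P = 0.578, limma; 1.45% of the tested miRNAs passed). At 75 against 50 it was 0.15 (interval -0.065 to 0.36, adjusted P = 0.936; 1.45% passed). At 75 against 25 it was -0.016 (interval -0.25 to 0.22, adjusted P = 0.923; 2.9% passed). The slope over dose was -0.00043 per 25 mg/kg/day (interval -0.087 to 0.086, adjusted P = 0.993), in a test that 10.1% of the miRNAs passed.

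Exact permutation tests over arrays, two-sided, are given beside the model. When arrays were exchanged only within slides, P was 0.733 for 25, 0.333 for 50 and 1 for 75 mg/kg/day against vehicle. Between doses it was 0.375 for 50 against 25, 0.139 for 75 against 50 and 1 for 75 against 25. With so few arrangements (9 for 50 and for 75 against vehicle, 72 at most), no adjusted P over these 6 pairs could go below 0.0625, so the within-slide tests could not reach the threshold. Exchanging arrays without regard to slide gave P between 0.587 and 0.897, where the smallest P possible was 0.0179 against vehicle and 0.00794 between doses.

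Within slides, the differences from vehicle were small or of mixed sign. On slide 1, which has 1 vehicle array, the 25 mg/kg/day arrays differed from it by 0.025, those of the middle dose by 0.0044 and those of the highest by 0.15. On slide 3, which has 2 vehicle arrays, the differences were 0.057 at 25, -0.28 at 50 and -0.12 at 75 mg/kg/day. Those at 25 mg/kg/day thus had 1 sign on both slides, and so had those of 50 against 25 mg/kg/day (-0.021 on slide 1 and -0.33 on slide 3). The step from 50 to 75 mg/kg/day could be compared on all 3 slides, at 0.14 on slide 1, 0.15 on slide 2 and 0.15 on slide 3, and its exact test within slides did not pass (P = 0.139).

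**Figure D2:**
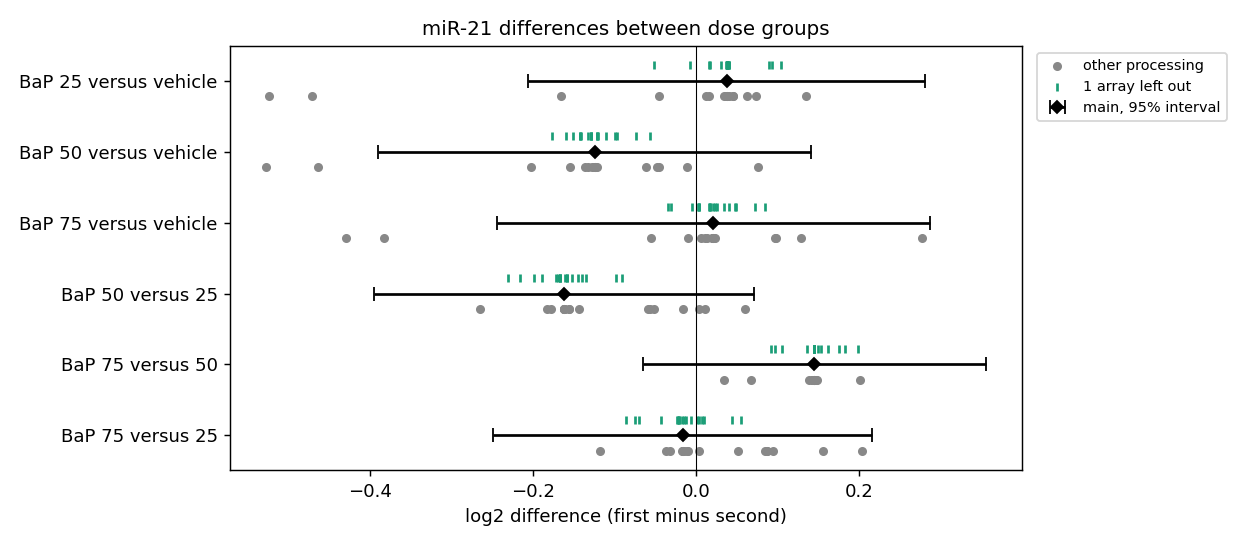
Log2 difference of miR-21 between dose groups, first minus second. Diamonds with bars are the limma estimates with slide in the fit and their 95% intervals (18 arrays), grey points the same difference under other processing, and green ticks the estimate with 1 array left out; every 95% interval crosses 0.

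For dose, the 2 probes were alike in that neither passed the threshold against vehicle. Against vehicle, the brighter probe differed by 0.013 at 25, -0.045 at 50 and 0.098 at 75 mg/kg/day, with adjusted P of 0.966, 0.937 and 0.725 in limma. The dimmer probe differed by 0.063, -0.20 and -0.054, with adjusted P of 0.836, 0.442 and 0.860. At 75 mg/kg/day the probes therefore had opposite signs. Within slides at 25 mg/kg/day, the brighter probe differed from vehicle by 0.11 on slide 1 and -0.034 on slide 3. The dimmer probe differed by -0.060 and 0.15 there. Spots of a probe on an array were close to each other, since their SD on the log2 scale had a median of 0.12 for the brighter and 0.076 for the dimmer probe. The software had marked 10 of 180 spots of the brighter and 6 of 180 of the dimmer probe as outliers, and these were removed.

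The difference between slides was far larger than any difference between doses. This comparison was added after the values by slide had been seen. With dose in the fit, miR-21 was higher on slide 1 than on slide 3 by 1.46 on the log2 scale (95% interval 1.27 to 1.64, adjusted P = 1.24e-09, limma), a ratio of 2.74. It was higher on slide 1 than on slide 2 by 1.51 (interval 1.28 to 1.73, adjusted P = 1.06e-08), a ratio of 2.84. Slides 2 and 3 differed by -0.050 (interval -0.30 to 0.20, adjusted P = 0.981). Vehicle alone showed the same gap, with 10.31 on slide 1 against 8.89 and 9.03 on slide 3.

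Such slide differences were common, and under cyclic loess miR-21 had the largest of the 69 in the comparisons of slide 1 with slide 3 and with slide 2. Between slides 1 and 3, 68.1% of the tested miRNAs passed the threshold, 19 of them higher and 28 lower on slide 1, and the median difference was -0.033. The next after miR-21 was miR-101b, at 0.83. Between slides 1 and 2, 53.6% passed, and between slides 2 and 3, 0% did, while 5 had an unadjusted P under 0.05 in limma. The slides with many differences thus involved slide 1. Slide, hybridisation, scan and image extraction cannot be told apart here. The 7 slide 1 arrays were extracted with a grid read from a file, and the other 11 were not. The extracted data held 60 columns per spot on slide 1 and 31 on the others. The array medians before normalisation were 39.5 to 50.5 on slide 1 against 58 to 69 on the others.

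**Figure D3:**
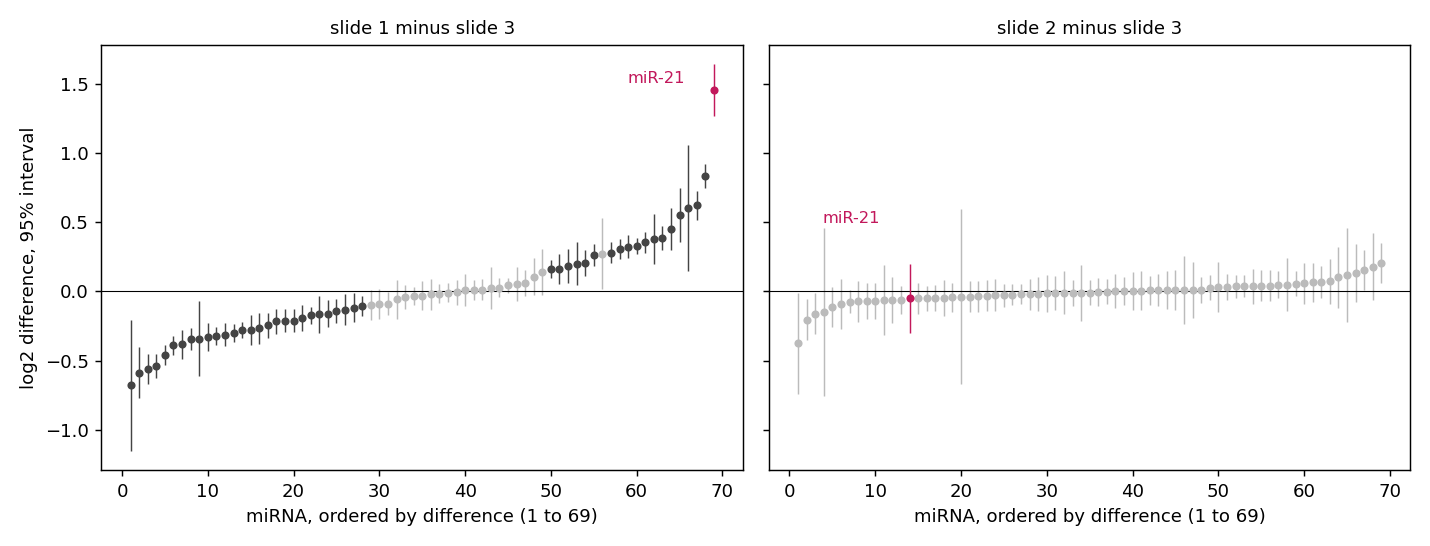
Log2 difference between slides of each of the 69 tested miRNAs, ordered by size, with 95% limma intervals; dark points passed an adjusted P of 0.05, light grey points did not, and miR-21 is in red. MiR-21 is at the upper end for slide 1 minus slide 3 (1.46), and lies among the others for slide 2 minus slide 3 (-0.050).

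The probes of miR-21 shifted by unequal amounts. Between slides 1 and 3 the dimmer probe differed by 1.94 (interval 1.74 to 2.14) and the brighter by 0.97 (interval 0.77 to 1.17), ratios of 3.85 and 1.96. Of all 112 probes kept, the dimmer had rank 1 and the brighter rank 3 in this difference. In the background-subtracted signal, the brighter probe stood 8.04 to 9.20 times above the dimmer on slide 1, 29.6 to 36.1 times on slide 2 and 30.4 to 44.4 times on slide 3. These ranges do not overlap between slide 1 and the others, which shows that the probes changed unequally and not which of them changed. Among the 41 miRNAs with over 1 probe kept, the spread of 0.98 between the probes of miR-21 was rank 4, where the median was 0.37. Let-7f, miR-22 and let-7g had wider spreads, from 1.02 to 1.40.

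**Figure D4:**
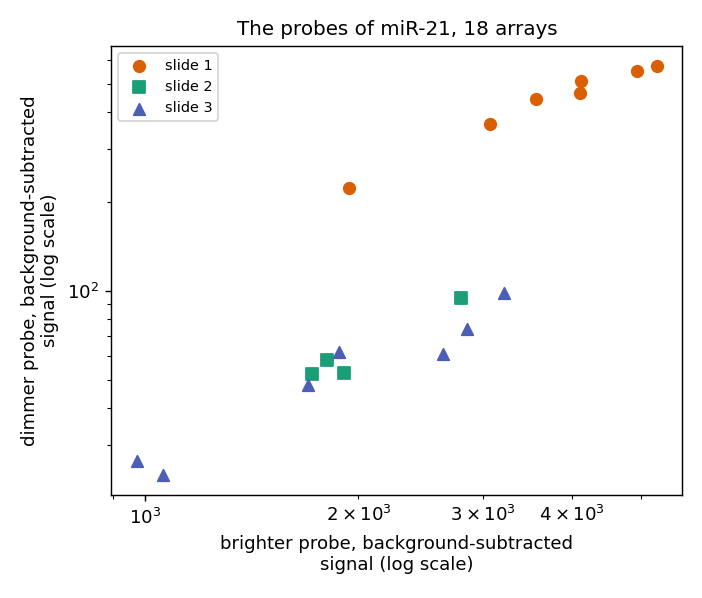
Background-subtracted signal of the dimmer against the brighter miR-21 probe on the 18 arrays, on log axes, by slide. The slide 1 arrays lie along a line of their own, with dimmer-probe signals of 222 to 572, while on the other slides they lie between 23.9 and 97.8 over an overlapping range of the brighter probe.

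The miRNAs whose pattern was most like that of miR-21 were ranked by Pearson r over the 18 arrays, after each slide's mean was taken out, and are given as a description. These were miR-122 (r = 0.57), miR-193 (0.51), miR-23b (0.50), let-7f (0.48) and miR-702 (0.46). All arrays share normalisation, and r over the 68 other miRNAs had a median of -0.11 and ran from -0.79 to 0.57. The probes of miR-21 itself had an r of 0.70. Likeness differed between slides: miR-193 had an r of -0.19 on slide 1 and 0.84 on slide 3, and miR-23b -0.51 and 0.78, while miR-122 had 0.71 and 0.70. Before slide means were taken out, miR-101b had an r of 0.98 with miR-21, and miR-122 had 0.22. None of the 5 differed from vehicle past the threshold at any dose. Of all tested miRNAs, only 0% passed at 25, 2.9% at 50 and 5.8% at 75 mg/kg/day, so this does not set the 5 apart. At 75 mg/kg/day their differences were 0.11, 0.053, 0.0095, 0.0052 and 0.12 in the same order.

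**Figure D5:**
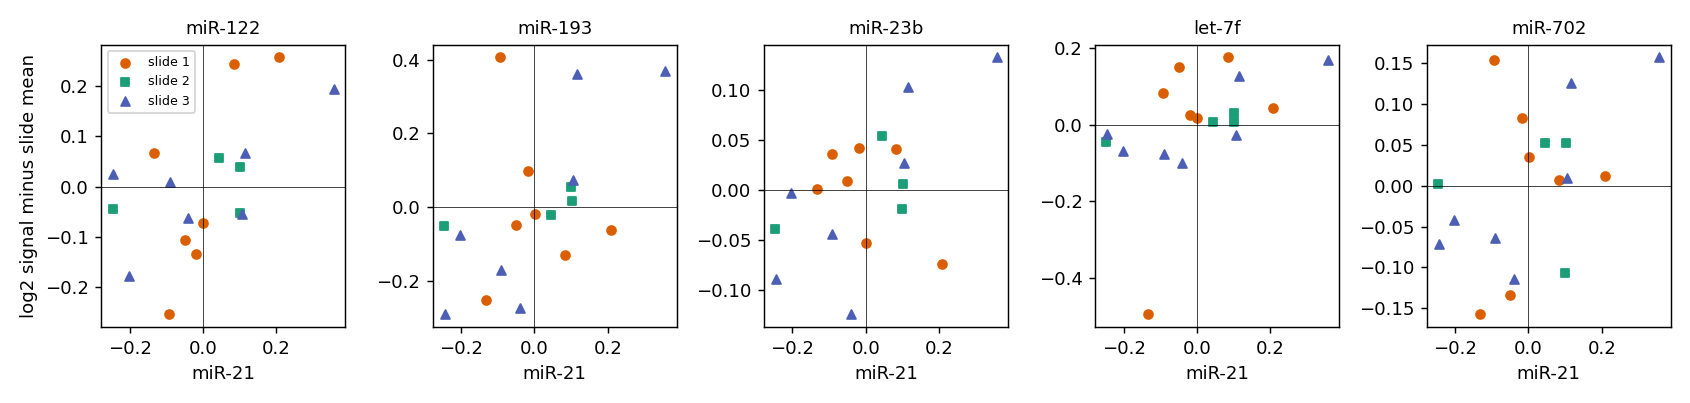
Log2 signal of the 5 miRNAs most like miR-21, each against miR-21, after the mean of each slide was subtracted; each point is 1 of 18 arrays, by slide. The cloud of miR-122 (r = 0.57) leans upward with wide scatter, and 1 slide 1 array sits far below the rest for let-7f.

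Other miRNAs linked to liver injury were described from lists. Of 18 miRNAs tied to fibrosis and stellate cell activation, 17 were on the array and 8 were tested; none rose, and miR-199a-3p, which is made by stellate and other mesenchymal cells, fell by 0.22 at 75 mg/kg/day (SE 0.048, adjusted P = 0.00931, limma). That call was lost without vehicle replicate 1 (adjusted P = 0.107) and with quantile normalisation (0.109), array medians centred only (0.627), no normalisation (0.298), the processed signal (0.253) or the total gene signal (0.327), each with a negative difference. It was kept with normexp background correction (adjusted P = 0.00933, limma), in the authors' value table (0.00919) and when any other single array was left out. MiR-27a, linked to fat storage in stellate cells, had 0.15 (adjusted P = 0.0926). MiR-199a-3p was thus the 1 of 8 tested members to pass, where 5.8% of all tested miRNAs passed at this dose. The median difference of this list at 75 mg/kg/day was 0.030, beside -0.030 over all 69. Of 10 inflammation miRNAs, 2 were tested and 0 passed at any dose, where 0%, 2.9% and 5.8% of all tested miRNAs passed at the 3 doses: miR-223, a neutrophil and macrophage miRNA, had -0.0038 at 75 mg/kg/day (adjusted P = 0.976), and miR-125b-5p had -0.11 (adjusted P = 0.225).

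Of 19 miRNAs tied to liver regeneration and liver cancer, 10 were tested. MiR-34a alone rose, at 50 and at 75 mg/kg/day, with the values given above, and 0 fell, where 2.9% and 5.8% of all tested miRNAs passed at these doses. MiR-26b, which restrains the cell cycle, had the next largest difference at 75 mg/kg/day, -0.31 (SE 0.10, adjusted P = 0.0669). The list had a median of -0.021 at this dose. Red cell and white cell markers had no member past the threshold, with medians of -0.075 and -0.0038 at 75 mg/kg/day, and their part in the level of miR-21 was not tested.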

How the data were processed

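The miRNA profiles available here came from 18 livers on 1-colour Agilent mouse miRNA arrays, each from 100 ng of RNA enriched in small species. The authors extracted the images with Agilent Feature Extraction 10.7.3.1 and deposited the intensity of each spot, linear and without scaling across arrays, with the software's flags. They also deposited a table of log2 values, 1 per miRNA name and array, whose centring is unknown and which served as an alternative only. The study's methods set 4 of the steps followed here: background was not subtracted, arrays were normalised by cyclic loess, replicate spots were combined by their median, and slide was a block. The use of each spot's median signal on the log2 scale and of non-control spots alone in the loess was chosen here. Because background was kept, log2 differences of dim probes are understated. Spots marked as non-uniform or population outliers (1.91% to 3.84% per array) were then removed, and probes of a miRNA were averaged.

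A probe was present on an array where at least 0.5 of its spots were well above background, and was kept where this held on at least 0.8 of the arrays of a group, which left 112 of 1712 probes and 69 of 576 names. Of these, 42 names were present on all arrays. Models were fitted with limma 3.58.1 in R 4.3.3 to all 18 arrays, with Benjamini-Hochberg adjustment over the 69 miRNAs and a threshold of 0.05. Results of single probes were adjusted over the 112 probes kept, and settings with another filter over the names they kept. The study itself used another tool. The scripts were tested on simulated data. Groups follow the labels, which give no replicate numbers; 0 pairs of arrays were identical. The number of arrays limits the precision, and P-values measure the spread between these arrays.

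MiR-21 and the lists were chosen with earlier results of these data known. Named by rule were miR-21, its star strand and miRNAs with its seed, the 5 miRNAs most alike, miR-34a and, of each list, the members past the threshold against vehicle, topped up to the 2 with the largest difference at 75 mg/kg/day when under 2 passed.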

Additional observations from a re-analysis of the deposited data

How the results depend on the processing

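MiR-21 passed the threshold in none of the 244 values recomputed for the 7 dose results (lowest adjusted P 0.215, limma), of which 126 left out 1 array each. The difference of 75 from 50 mg/kg/day stayed positive in all of them. The sign changed in 48. For 25 mg/kg/day against vehicle they were -0.045 with quantile normalisation, -0.47 with array medians centred only, -0.52 without normalisation and -0.17 in the authors' table. For 50 against vehicle it was 0.077 with the total gene signal; the value farthest from 0 of all was also here, -0.53 with array medians, and it was -0.46 without normalisation, both below the 95% interval of the reported value. For 75 against vehicle they were -0.38 with array medians, -0.43 without normalisation, -0.0093 in the authors' table and -0.054 with the dimmer probe. The values with array medians and without normalisation at 25 and at 75 mg/kg/day also lay below the 95% intervals of the reported values. For 50 against 25 they were 0.061 without normalisation, 0.0034 with the total gene signal and 0.011 in the authors' table. For 75 against 25 they were 0.052 with quantile normalisation, 0.088 with array medians, 0.095 without normalisation, 0.0039 with normexp, 0.088 with the processed signal, 0.20 with the total gene signal, 0.16 in the authors' table and 0.084 with the brighter probe. For the slope they were 0.0062 with quantile normalisation, 0.0015 with normexp, 0.040 with the processed signal, 0.092 with the total gene signal, 0.012 in the authors' table, 0.00089 with marked spots kept, 0.032 with the brighter probe and 0.0064 with no slide term. Over all other processing the slope ran from -0.10 to 0.092, past both ends of its 95% interval. With array medians or no normalisation, the median of all miRNAs against vehicle itself moved to between -0.30 and -0.19. The cause of these changes was not tested.

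Leaving out each array gave -0.051 to 0.10 for 25 against vehicle, -0.18 to -0.057 for 50, -0.034 to 0.084 for 75, -0.23 to -0.090 for 50 against 25, 0.092 to 0.20 for 75 against 50, -0.085 to 0.055 for 75 against 25 and -0.024 to 0.017 for the slope. The slide results and their alternatives were chosen after seeing the data. Slide 1 exceeded slide 3 by 0.93 (authors' table) to 1.98 (array medians) and slide 2 by 0.98 to 1.86, always past the threshold, while the median of all miRNAs ran from -0.33 to 0.33; without each array the differences were 1.41 to 1.51 and 1.44 to 1.57. Slide 2 minus slide 3 became 0.13 with array medians, 0.23 without normalisation, 0.047 with the processed signal and 0.087 with the dimmer probe, and -0.12 to 0.017 without each array. The number of all miRNAs past the threshold moved by over 1.5 times in each dose comparison, from 0 to 7 (against 0) at 25, 0 to 4 (against 2) at 50 and 1 to 9 (against 4) at 75 mg/kg/day, from 0 to 1 (against 1) for 50 against 25, 0 to 2 (against 1) for 75 against 50, 0 to 7 (against 2) for 75 against 25, the 7 without BaP 25 replicate 1, and 1 to 13 (against 7) for the slope. Between slides 1 and 3 it was 25 with array medians and 24 without normalisation, against 47, and 160 of 576 with no filter on dim probes. Between slides 1 and 2 it was 3 with array medians, against 37, and 122 of 576 with no filter. No paired analysis was possible because the labels give the arrays no replicate numbers.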

Other observations

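The authors' own value table gave the same split of miR-21 by slide, with log2 values of 9.69 to 10.24 on slide 1, 8.55 to 8.97 on slide 2 and 8.91 to 9.41 on slide 3. In that table slide 2 lay 0.38 below slide 3 (adjusted P = 0.165, limma).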
